A study of Mus musculus with 4 samples.

Results

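The 10 genes described are those of the serum amyloid A family (Saa1, Saa2, Saa3 and Saa4), the orosomucoid family (Orm1, Orm2 and Orm3), lipocalin 2 (Lcn2), haptoglobin (Hp) and serum amyloid P component (Apcs). They were taken, by symbol and not by level, as every probe set whose only gene symbol in the platform annotation was 1 of these 10, which gave 12 probe sets of 45037 on the array and 10 genes of 18193 with a symbol. Saa1 and Saa4 had 2 probe sets each, and the other 8 genes had 1. All 12 passed the filter on low values, which asked that a probe set reach the array's median signal on at least 1 array, as did 26035 probe sets in all.

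Liver RNA came from male mice in 4 groups: LASS2-/- on a high-fat diet (LASS2-/- HFD), wild type on a high-fat diet (WT HFD), LASS2-/- on chow (LASS2-/- chow) and wild type on chow (WT chow). The high-fat diet held 60% of calories as fat and the chow 10%, and feeding began at 3 weeks of age. LASS2 is an older name for the gene Cers2, which encodes a ceramide synthase of very-long-chain ceramides. Each group had 1 Affymetrix 3' expression array, and whether that was the RNA of a single mouse or of pooled mice is not stated, so no value below has an error between animals. The labels name no strain and do not describe the allele.

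Acute-phase proteins are plasma proteins made by hepatocytes whose synthesis changes during inflammation. Interleukin-6 acting through STAT3, and interleukin-1 and tumour necrosis factor acting through NF-kB, are the best known inducers in liver, with C/EBP factors binding beside them. SAA1 and SAA2 are apolipoproteins of high-density lipoprotein and the strongly inducible members of their family, SAA3 is also made outside the liver by macrophages and adipocytes, and SAA4 is the constitutive member. Orosomucoids, or alpha-1-acid glycoproteins, bind drugs and lipids in plasma. Lipocalin 2 binds iron-loaded siderophores, haptoglobin binds free haemoglobin, and serum amyloid P component is a pentraxin that in mice is itself an acute-phase protein.

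On the array scale every value is a log2 signal made by MAS5, the Affymetrix signal algorithm, so a difference of 1 is a 2-fold difference, and levels are compared only between arrays for the same probe set. The median probe set had a log2 signal of 6.19 on LASS2-/- HFD, 6.19 on WT HFD, 6.28 on LASS2-/- chow and 6.17 on WT chow. Cers2, the targeted gene, had signals of 12.32 on LASS2-/- HFD, 12.25 on WT HFD, 12.32 on LASS2-/- chow and 12.46 on WT chow. It was thus not lower by more than 0.15 log2 on either array with the LASS2-/- label, and the part of the transcript read by its probe set was not determined. Genotype names below are therefore those of the labels, and every genotype direction is between arrays so labelled. Albumin (Alb), the defining hepatocyte product, had 15.02 on LASS2-/- HFD, 15.07 on WT HFD, 15.27 on LASS2-/- chow and 15.08 on WT chow, and all 8 hepatocyte markers on the array entered the analysis. These are whole-tissue values, in which fewer cells of a type and less RNA per cell cannot be told apart.

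The promoters of Lcn2, of the neighbours Saa1 and Saa2, of the neighbours Orm2 and Orm3, and of the constitutive Saa4 are printed because they show how much sequence the neighbours share. Saa3, Saa4, Saa1 and Saa2 lie in that order within 42316 bp of chromosome 7 (46711998 to 46754313), and Orm1, Orm3 and Orm2 within 21322 bp of chromosome 4 (63344556 to 63365877), all on GRCm38.p6. RefSeq windows on that build, 250 bases before to 50 bases after the annotated start, matched 8 of the 10 members, Hp and Orm1 being the other members. Capitals mark matches on either strand to 4 motifs: TTGCNNAA (C/EBP), the NF-kB pattern of 3 G, any 5 bases and 2 C, TTCNNNGAA (STAT) and CTGGGAA, an interleukin-6 response element of acute-phase genes. No 2 matches of different motifs overlapped.
Lcn2, chr2:32387690-32387989, - strand: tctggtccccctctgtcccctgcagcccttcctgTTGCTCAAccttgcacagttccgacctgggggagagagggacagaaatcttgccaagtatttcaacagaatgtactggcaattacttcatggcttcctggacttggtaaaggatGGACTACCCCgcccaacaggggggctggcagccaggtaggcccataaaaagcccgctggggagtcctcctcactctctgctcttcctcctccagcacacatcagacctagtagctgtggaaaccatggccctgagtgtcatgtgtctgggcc
Saa1, chr7:46742931-46743230, - strand: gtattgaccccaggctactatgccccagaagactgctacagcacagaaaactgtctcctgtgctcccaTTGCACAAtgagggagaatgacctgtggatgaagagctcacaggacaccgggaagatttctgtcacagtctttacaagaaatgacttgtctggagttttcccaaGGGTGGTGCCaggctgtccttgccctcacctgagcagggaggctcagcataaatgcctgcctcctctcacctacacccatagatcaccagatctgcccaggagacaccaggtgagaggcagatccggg
Saa2, chr7:46751583-46751882, + strand: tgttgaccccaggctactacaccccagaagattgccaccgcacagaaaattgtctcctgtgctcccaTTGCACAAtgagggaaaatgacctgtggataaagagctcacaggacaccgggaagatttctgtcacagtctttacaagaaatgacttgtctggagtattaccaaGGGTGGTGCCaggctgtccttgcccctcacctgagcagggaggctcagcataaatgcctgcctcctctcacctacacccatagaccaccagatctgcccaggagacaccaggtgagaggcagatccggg
Saa4, chr7:46732554-46732853, - strand: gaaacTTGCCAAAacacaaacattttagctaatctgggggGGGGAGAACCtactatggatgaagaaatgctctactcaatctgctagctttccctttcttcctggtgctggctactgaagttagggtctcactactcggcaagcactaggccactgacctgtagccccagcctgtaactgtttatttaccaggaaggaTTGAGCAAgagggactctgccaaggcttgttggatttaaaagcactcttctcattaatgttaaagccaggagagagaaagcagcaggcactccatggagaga
Orm2, chr4:63362199-63362498, + strand: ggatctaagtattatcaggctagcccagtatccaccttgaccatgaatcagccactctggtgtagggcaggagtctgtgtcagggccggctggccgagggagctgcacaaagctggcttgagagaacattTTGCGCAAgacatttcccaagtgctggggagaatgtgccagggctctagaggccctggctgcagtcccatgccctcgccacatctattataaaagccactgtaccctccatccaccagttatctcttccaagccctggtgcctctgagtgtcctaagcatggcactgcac
Orm3, chr4:63355908-63356207, + strand: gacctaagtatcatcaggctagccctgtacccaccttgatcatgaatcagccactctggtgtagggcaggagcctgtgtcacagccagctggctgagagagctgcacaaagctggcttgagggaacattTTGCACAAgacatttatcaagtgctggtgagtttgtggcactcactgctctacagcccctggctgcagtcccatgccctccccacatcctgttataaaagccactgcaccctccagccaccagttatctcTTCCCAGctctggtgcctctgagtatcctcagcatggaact

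The C/EBP letters were found in 7 of the 8 member windows, all but Apcs, and in 10.8% of all 32851 promoter windows of the same length. The NF-kB letters were found in 4 member windows (Saa1, Saa2, Saa4 and Lcn2), and in 50.8% of all windows. The STAT letters were found in Apcs alone among members and in 8.3% of all windows, and the interleukin-6 response element in Apcs and Orm3 and in 11.1% of all windows. A match is a description of letters and not a binding site, and neighbouring members share sequence and are not independent. The Saa1 and Saa2 windows were identical at 95.3% of aligned positions, and the Orm2 and Orm3 windows at 86.2%. All other pairs of member windows lay between 43.3% and 51.9%. The window of the constitutive Saa4 holds both C/EBP and NF-kB letters too. A relation between these letters and the diet ratios was not tested.

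**Figure D1:**
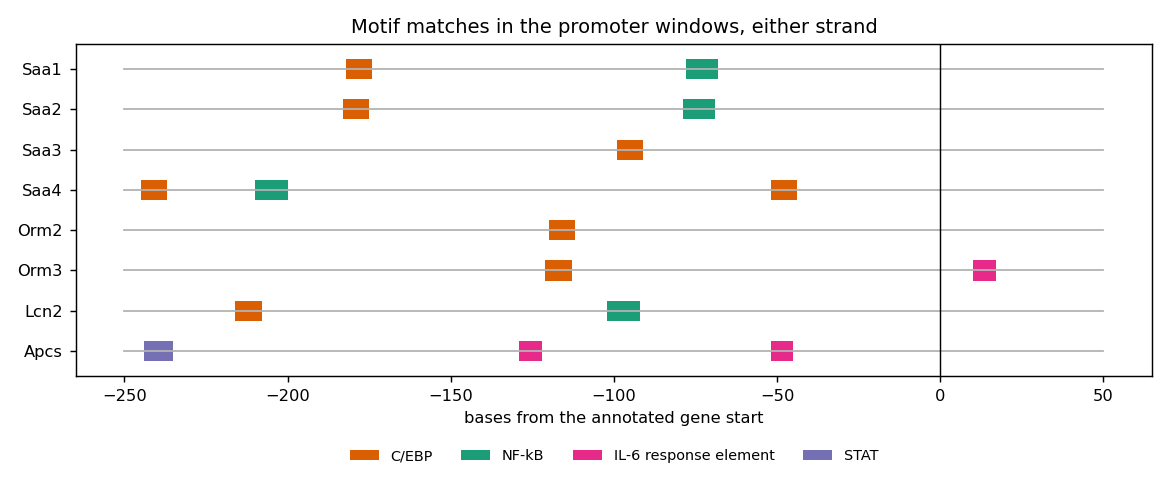
Position of each motif match in the 8 RefSeq promoter windows, in bases from the annotated gene start, with the colour giving the motif. C/EBP letters appear in 7 of the 8 windows, at nearly the same position in Saa1 and Saa2 and again in Orm2 and Orm3.

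Lcn2 differed most among the members. Its log2 signal was 13.19 on LASS2-/- HFD, 10.60 on WT HFD, 8.10 on LASS2-/- chow and 7.90 on WT chow. Both high-fat arrays were above both chow arrays, and the array labelled LASS2-/- HFD stood alone at the top. High-fat diet over chow was 34.0-fold in LASS2-/- and 6.50-fold in WT, and of the 26035 probe sets tested 1 had a larger ratio in LASS2-/- and 18 had a larger one in WT. LASS2-/- over WT was 6.02-fold on the high-fat diet, with 8 probe sets higher, and 1.15-fold on chow, with 6670 higher. In limma's additive model of genotype and diet over all 4 arrays, Lcn2 rose with the high-fat diet by 3.89 ± 0.36 log2 (moderated SE, adjusted p = 2.25e-05). Its mean genotype effect was 1.40 ± 0.36 log2 and did not pass (adjusted p = 0.171).

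That moderated error borrows its size from probe sets of like signal, whose residual SD was 0.167 log2, while Lcn2's own residual SD was 1.19 log2 because its genotype ratio differed so much between the diets. With robust moderation, which lets such probe sets keep their own variance, the diet effect of Lcn2 did not pass (adjusted p = 0.419). The own residual SD also exceeded that of like signal for Saa1, Saa2, Saa3, Orm2 and Apcs. It was 0.42 against 0.145 log2 for Saa2 and 0.465 against 0.16 for Orm2. For Saa4, Orm1, Orm3 and Hp it was the smaller of the pair. Robust moderation left limma adjusted p for diet of 0.0207 for Saa2 and 0.0178 for Orm2.

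Saa1, Saa2 and Saa3, the inducible serum amyloid A genes, were also highest on the array labelled LASS2-/- HFD. Saa2 had log2 signals of 13.20 on LASS2-/- HFD, 11.67 on WT HFD, 10.77 on LASS2-/- chow and 10.08 on WT chow. Each high-fat array was above each chow array, and within each diet the LASS2-/- array was above the WT array. Saa2 rose with the high-fat diet by 2.01 ± 0.16 log2 (limma adjusted p = 5.84e-06), with single ratios of 5.40-fold in LASS2-/- and 3.02-fold in WT. It was the only member to pass for genotype, by 1.11 ± 0.16 log2 (limma adjusted p = 0.008), with LASS2-/- over WT at 2.89-fold on the high-fat diet and 1.62-fold on chow. That genotype call was lost with quantile normalization (adjusted p = 0.0603), equal array medians (adjusted p = 0.0627), robust moderation (adjusted p = 0.327) and no trend in the moderation (adjusted p = 0.805).

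The Saa1 probe sets gave like values. Probe set 1419075_s_at had 14.16 on LASS2-/- HFD, 13.29 on WT HFD, 12.26 on LASS2-/- chow and 12.08 on WT chow. Probe set 1450788_at had 14.29 on LASS2-/- HFD, 13.41 on WT HFD, 12.35 on LASS2-/- chow and 12.43 on WT chow. Both high-fat arrays were above both chow arrays on each probe set, and the chow arrays lay close together. Saa1 rose with the high-fat diet by 1.56 ± 0.13 log2 on 1419075_s_at (limma adjusted p = 9.23e-06) and by 1.46 ± 0.16 log2 on 1450788_at (limma adjusted p = 8.87e-05). The second call was lost with robust moderation (adjusted p = 0.286). LASS2-/- over WT was 1.83-fold and 1.84-fold on the high-fat diet, and on chow 1.13-fold higher on 1419075_s_at and 1.06-fold lower on 1450788_at. The genotype effect passed for neither (limma adjusted p = 0.145 for 1419075_s_at and 0.475 for 1450788_at). Saa1 and Saa2 are not fully separated here: the platform accession of 1419075_s_at is a Saa2 transcript, each gene's symbol is listed as a synonym of the other, and the endings _s_at and _x_at mark probes shared between transcripts.

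Saa3 had 10.87 on LASS2-/- HFD, 9.46 on WT HFD, 9.33 on LASS2-/- chow and 9.04 on WT chow. The array labelled LASS2-/- HFD was above the other 3, which spanned 0.42 log2. Saa3 rose with the high-fat diet by 0.98 ± 0.21 log2 (limma adjusted p = 0.0127), though the ratio was 2.90-fold in LASS2-/- and 1.34-fold in WT, and with robust moderation the call was lost (adjusted p = 0.16). LASS2-/- over WT was 2.65-fold on the high-fat diet and 1.22-fold on chow, and the mean genotype effect of 0.85 ± 0.21 log2 did not pass (limma adjusted p = 0.151).

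Saa4, the constitutive gene, lies between Saa3 and Saa1. Probe set 1419318_at had 13.83 on LASS2-/- HFD, 14.08 on WT HFD, 13.44 on LASS2-/- chow and 13.59 on WT chow. Probe set 1419319_at had 11.63 on LASS2-/- HFD, 12.07 on WT HFD, 10.90 on LASS2-/- chow and 11.35 on WT chow. On both probe sets the LASS2-/- array was below the WT array within each diet, and each high-fat array was above each chow array. Saa4 rose with the high-fat diet by 0.44 ± 0.08 log2 on 1419318_at (limma adjusted p = 0.00456) and by 0.72 ± 0.10 log2 on 1419319_at (limma adjusted p = 0.000825), with no single diet ratio over 1.66-fold. Its mean genotype effects were -0.20 ± 0.08 log2 on 1419318_at and -0.45 ± 0.10 log2 on 1419319_at and did not pass (limma adjusted p = 0.459 and 0.126).

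The orosomucoid genes divided. Orm2 had 11.79 on LASS2-/- HFD, 10.52 on WT HFD, 9.52 on LASS2-/- chow and 9.19 on WT chow. Orm3 had 8.52 on LASS2-/- HFD, 7.97 on WT HFD, 7.39 on LASS2-/- chow and 6.68 on WT chow. Orm1 had 14.47 on LASS2-/- HFD, 14.39 on WT HFD, 14.76 on LASS2-/- chow and 14.59 on WT chow. Orm2 and Orm3 were thus higher on both high-fat arrays than on both chow arrays, while Orm1 was lower on both high-fat arrays. Orm1 was brighter than 99.5% of all probe sets, Orm2 than 88.0% and Orm3 than 67.1%. The signal at which the Orm1 probe set would saturate was not measured. Orm2 rose with the high-fat diet by 1.80 ± 0.18 log2 (limma adjusted p = 4.85e-05), at 4.79-fold in LASS2-/- and 2.52-fold in WT. Orm3 rose by 1.21 ± 0.24 log2 (limma adjusted p = 0.00751), at 2.18-fold in LASS2-/- and 2.44-fold in WT. Orm1 had a diet effect of -0.25 ± 0.07 log2 that did not pass (limma adjusted p = 0.0629). Among the alternatives run it passed only when each gene was represented by 1 probe set (limma adjusted p = 0.0495). With quantile normalization it was -0.12 log2 (limma adjusted p = 0.318).

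With genotype, Orm2 was 2.41-fold higher in LASS2-/- than in WT on the high-fat diet and 1.26-fold higher on chow, and its mean effect of 0.80 ± 0.18 log2 did not pass (limma adjusted p = 0.106). Orm3 was 1.47-fold higher in LASS2-/- on the high-fat diet and 1.64-fold higher on chow (limma adjusted p = 0.421). Orm1 was 1.06-fold higher in LASS2-/- on the high-fat diet and 1.12-fold higher on chow (limma adjusted p = 0.735).

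Hp and Apcs stayed within 0.46 log2 over the 4 arrays. Hp had 14.83 on LASS2-/- HFD, 14.86 on WT HFD, 14.82 on LASS2-/- chow and 14.83 on WT chow, a span of 0.04 log2. It was brighter than 99.7% of all probe sets, and the signal at which this probe set would saturate was not measured. Apcs had 12.98 on LASS2-/- HFD, 12.52 on WT HFD, 12.71 on LASS2-/- chow and 12.55 on WT chow, so it was highest on LASS2-/- HFD by 0.28 log2 over the next array. Neither passed for diet (limma adjusted p = 0.909 for Hp and 0.537 for Apcs) or for genotype (limma adjusted p = 0.975 for Hp and 0.311 for Apcs).

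**Figure D2:**
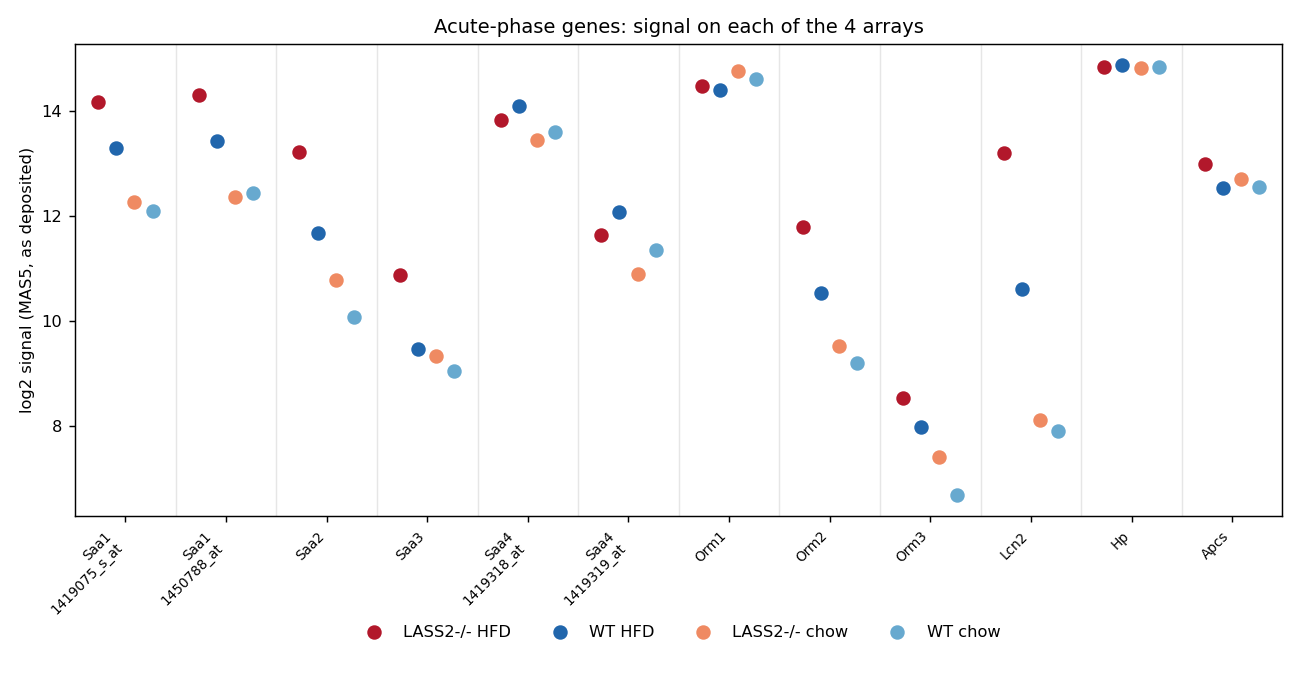
Log2 MAS5 signal of the 12 member probe sets on each of the 4 arrays, 1 point per array, with no error bars because each group had 1 array. Lcn2 spans 5.29 log2 and Hp 0.04, and 8 probe sets have their highest point on the LASS2-/- HFD array.

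Set together, the diet comparison gave calls in 1 direction. At 2-fold or more, 7 of the 12 probe sets were higher on the high-fat diet in LASS2-/- (both of Saa1, and Saa2, Saa3, Orm2, Orm3 and Lcn2), against 2.53% of all probe sets, and 0 were lower, against 2.01%. In WT, 5 were higher (Saa1 1419075_s_at, Saa2, Orm2, Orm3 and Lcn2), against 1.89% of all probe sets, and 0 were lower, against 1.46%. Just inside the 2-fold limit in WT was Saa1 1419075_s_at at 2.32-fold, and just outside it was Saa1 1450788_at at 1.97-fold. The median member ratio was 1.33 log2 in LASS2-/- and 0.85 log2 in WT, beside medians over all probe sets of -0.05 and 0.02 log2. By limma 9 of the 12 rose with the high-fat diet, all but Orm1, Hp and Apcs, against 3.89% of all probe sets, and 0 fell, against 3.62%. At an unadjusted p under 0.05, 9 were higher and 1 lower, where 20.4% of all probe sets had such a p in either direction. The 9 probe sets that rose by limma come from 7 genes. With robust moderation 6 of the 12 rose, against 947 of all 26035 probe sets. The calls lost were those of Saa1 1450788_at, Saa3 and Lcn2.

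The genotype comparison gave calls mainly on the high-fat diet. LASS2-/- was at least 2-fold above WT on the high-fat diet for 4 of the 12 probe sets (Saa2, Saa3, Orm2 and Lcn2), against 1.31% of all probe sets, and at least 2-fold below for 0, against 0.607%. On chow 0 of the 12 were 2-fold apart in either direction, against 1.19% of all probe sets higher and 0.553% lower. At 1.5-fold, 2 of the 12 (Saa2 and Orm3) were higher on chow, against 6.1% of all probe sets. The median member ratio was 0.71 log2 on the high-fat diet and 0.17 log2 on chow, beside 0.00 and 0.04 log2 over all probe sets. Limma's mean genotype effect, which weighs both diets alike, called 1 of 12 as higher in LASS2-/- (Saa2, against 0.242% of all probe sets) and 0 as lower (against 0.108%). At an unadjusted p under 0.05, 8 were higher and 2 lower, where 8.62% of all probe sets had such a p in either direction.

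The genotype ratio on the high-fat diet minus that on chow says how far the genotype difference depended on the diet, and with 1 array a group it has no test. It was 2.39 log2 for Lcn2, with 14 of all 26035 probe sets higher. It was 1.12 for Saa3 with 437 higher, 0.96 for Saa1 1450788_at with 690 higher, 0.93 for Orm2 with 774 higher, 0.84 for Saa2 with 995 higher and 0.69 for Saa1 1419075_s_at with 1602 higher. It was near 0 for both probe sets of Saa4 (-0.10 and 0.02), for Orm1 (-0.08), for Orm3 (-0.16) and for Hp (-0.02), and Apcs had 0.30 with 5185 higher. Over the 12 the median was 0.50 log2, beside -0.02 over all probe sets, of which 95% lay under 0.76.

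Along the 4 arrays, 6 of the 12 probe sets had the full order LASS2-/- HFD, WT HFD, LASS2-/- chow and WT chow from high to low (Saa1 1419075_s_at, Saa2, Saa3, Orm2, Orm3 and Lcn2), an order that 5.88% of all probe sets had. The array labelled LASS2-/- HFD was the highest for 8 of 12, against 24.8% of all probe sets. All 4 comparisons share arrays, so an unusual LASS2-/- HFD array would enter both the genotype ratio on the high-fat diet and the diet ratio in LASS2-/-. The WT diet ratio and the chow genotype ratio do not contain it.

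**Figure D3:**
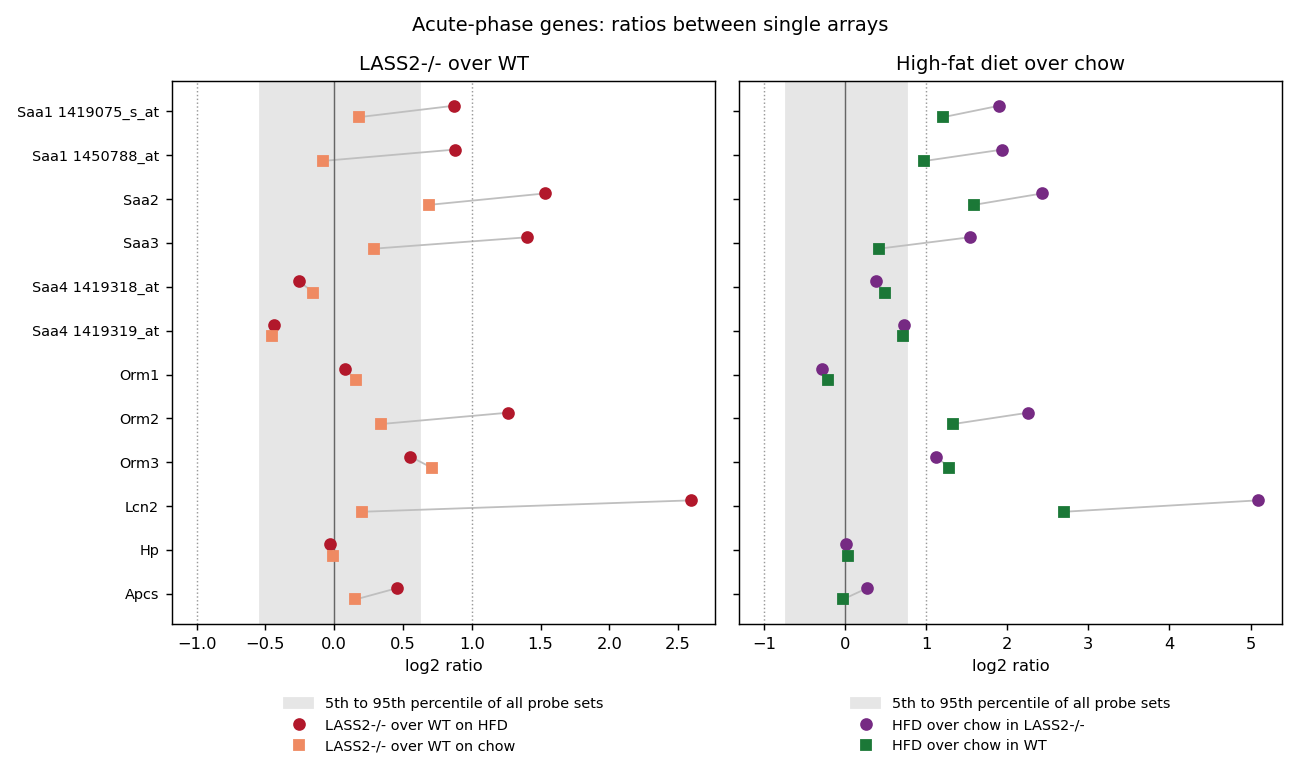
Log2 ratios of the 12 member probe sets, at left LASS2-/- over WT on each diet and at right high-fat diet over chow for both genotypes, with lines joining the ratios of a probe set, dotted lines at 2-fold and the grey band at the 5th to 95th percentile of all probe sets, drawn over the wider span of the pair. On the left 4 circles pass 2-fold higher and no square does, and on the right 7 circles and 5 squares do.

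A list of 26 genes was drawn up as other positive acute-phase genes, though not all encode acute-phase plasma proteins, Vnn1 being an enzyme. Of the 26, 21 entered, and 7 changed with the diet by limma. Of these, 3 rose with the high-fat diet (Mt1, Mt2 and Vnn1) and 4 fell (Fgb, Fgg, C9 and Hamp). An unadjusted p under 0.05 was found for 14 of the 21, with 7 in each direction. Over all 12493 genes the share with such a p was 23.7% for diet and 10.3% for genotype, which is the background for the lists that follow. At gene level, with the brightest probe set for each gene, 5.15% of all genes rose with the diet and 4.29% fell. The list's median diet ratio was -0.10 log2 in LASS2-/- and -0.05 in WT, beside 1.33 and 0.74 for the 10 members at gene level and -0.01 and 0.02 for all genes. Vnn1, a pantetheinase, had 13.57 on LASS2-/- HFD, 13.72 on WT HFD, 12.42 on LASS2-/- chow and 12.14 on WT chow, and rose by 1.36 ± 0.10 log2 (limma adjusted p = 4.94e-06). Its high-fat arrays were above its chow arrays, with little difference by genotype. Fgb, the fibrinogen beta chain, fell by 0.37 ± 0.07 log2 with the high-fat diet (limma adjusted p = 0.00437). Fgg, the gamma chain, fell by 0.33 ± 0.07 (limma adjusted p = 0.0119). Fga, the alpha chain, had -0.21 ± 0.07 and did not pass (limma adjusted p = 0.0854). Falls of this size were not particular to fibrinogen. Of the 8 hepatocyte markers 2 fell and 0 rose with the diet by limma. Cps1 had -0.41 ± 0.07 log2 (limma adjusted p = 0.00333) and Hnf4a -0.32 ± 0.08 log2 (limma adjusted p = 0.0348). At such bright signals small effects depended on the scaling. Quantile normalization moved the diet effect of Hp from 0.02 to 0.145 log2 and that of Orm1 from -0.25 to -0.12. Its results for these list genes are not given here. The metallothioneins Mt1 and Mt2, which bind zinc and copper, rose by 0.95 ± 0.10 log2 (limma adjusted p = 5.3e-05) and 0.77 ± 0.14 log2 (limma adjusted p = 0.00487). For the genotype 0 of the 21 passed, beside 0.304% of all genes higher and 0.152% lower, with 4 at an unadjusted p under 0.05.

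Of 14 negative acute-phase genes, whose plasma products usually decrease in inflammation, 11 entered. With the high-fat diet 1 rose (Apoa4, an apolipoprotein of triglyceride-rich particles, by 0.84 ± 0.19 log2, limma adjusted p = 0.0166) and 0 fell by limma, with 7 at an unadjusted p under 0.05 (1 higher and 6 lower). For the genotype 0 passed, with 1 at an unadjusted p under 0.05. The list's median diet ratio was -0.24 log2 in LASS2-/- and -0.15 in WT.

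A list of 32 genes was drawn up for interleukin-6, interleukin-1 and tumour necrosis factor signalling. It was broader than these pathways, and held the liver transcription factor Foxa2 and the STAT5-induced Cish. Of the 32, 27 entered, and more fell with the high-fat diet than rose. By limma 6 fell (Il1b, Il1rap, Socs3, Cish, Lifr and Foxa2), 2 rose (Cebpd and Il6ra), and 13 had an unadjusted p under 0.05 (4 higher and 9 lower). Socs3, the feedback inhibitor of STAT3 signalling, had 9.37 on LASS2-/- HFD, 8.63 on WT HFD, 10.88 on LASS2-/- chow and 10.92 on WT chow, and fell by 1.90 ± 0.17 log2 (limma adjusted p = 2.06e-05). Cish, a related inhibitor induced by STAT5, had 9.67 on LASS2-/- HFD, 8.31 on WT HFD, 10.83 on LASS2-/- chow and 10.82 on WT chow, and fell by 1.84 ± 0.23 log2 (limma adjusted p = 0.0003). Both were lower on each high-fat array than on each chow array, the opposite direction to Lcn2, Saa1, Saa2 and Orm2. The other probe sets of Socs3 were also lower on the high-fat diet, with floored mean log2 ratios of -2.01 and -1.66. The brightest probe set of Il1rap had a mean diet ratio of -0.37 log2. Its other kept probe sets had -0.40, -0.93 and 0.08 log2, so the fall was not shared by all of them.

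Cebpd, a C/EBP factor, had 10.53 on LASS2-/- HFD, 10.80 on WT HFD, 9.88 on LASS2-/- chow and 9.86 on WT chow, and rose by 0.79 ± 0.13 log2 (limma adjusted p = 0.00263). Its other probe set, which was below the array median on LASS2-/- HFD, had a floored mean diet ratio of -0.38 log2, so that direction is not shared by both probe sets. Il6ra, the interleukin-6 receptor, rose by 0.48 ± 0.13 log2 (limma adjusted p = 0.0409). Il1b, which encodes interleukin-1 beta, fell by 1.02 ± 0.22 log2 (limma adjusted p = 0.0137), and Lifr, a receptor of the interleukin-6 cytokine family, fell by 0.85 ± 0.10 log2 (limma adjusted p = 0.000138). The probe sets of Il6 and Tnf were below the array median on all 4 arrays and were not tested. For the genotype 0 of the 27 passed, with 5 at an unadjusted p under 0.05.

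Of 14 genes for partners of haptoglobin and lipocalin 2 and for iron handling, 12 entered. With the high-fat diet 4 fell by limma (Hamp, Hamp2, Bdh2 and Cd163), 0 rose, and 7 had an unadjusted p under 0.05 (2 higher and 5 lower). Hamp2, a hepcidin gene, had 12.25 on LASS2-/- HFD, 12.94 on WT HFD, 13.55 on LASS2-/- chow and 14.16 on WT chow, the reverse of the order of Lcn2. It fell by 1.26 ± 0.08 log2 with the high-fat diet (limma adjusted p = 1.78e-06) and by 0.65 ± 0.08 log2 in LASS2-/- relative to WT (limma adjusted p = 0.00615), the only gene of the list to pass for genotype. Hamp2's probe set ends in _x_at and can share signal with Hamp, the hepcidin that regulates iron export, which fell by 0.62 ± 0.08 log2 with the diet (limma adjusted p = 0.000447) and had a mean genotype ratio of 0.07 log2. Cd163, the macrophage receptor for haptoglobin bound to haemoglobin, had 8.74 on LASS2-/- HFD, 9.79 on WT HFD, 9.67 on LASS2-/- chow and 10.20 on WT chow. Slc22a17, described as a receptor for lipocalin 2, had 6.01 on LASS2-/- HFD, 6.50 on WT HFD, 7.13 on LASS2-/- chow and 6.98 on WT chow, and did not pass for diet (limma adjusted p = 0.285). Apart from Vnn1, Socs3, Cish and Hamp2, the list genes named were chosen after their values were seen.

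**Figure D4:**
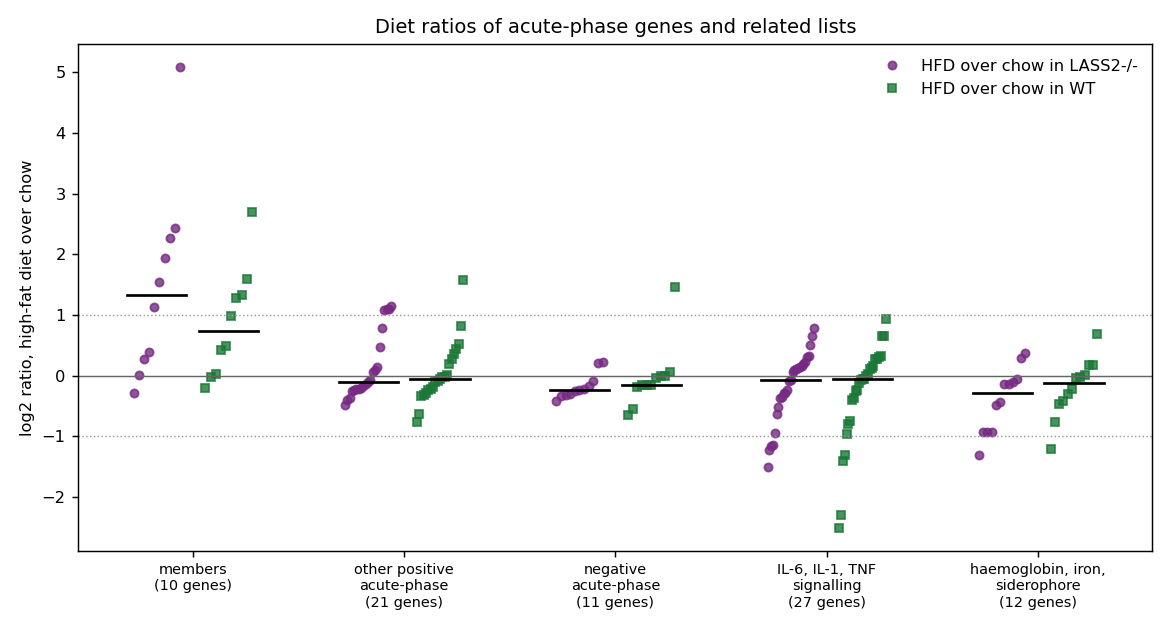
Log2 ratio of high-fat diet over chow for the 10 members and for the genes of 4 related lists, in LASS2-/- (circles) and in WT (squares), 1 point per gene sorted by value, with black bars at the medians and dotted lines at 2-fold. The member medians are 1.33 and 0.74, and those of the other lists lie between -0.29 and -0.05.

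Lcn2 and Saa3 are also made by neutrophils, macrophages or adipocytes, so the markers of those cells are given beside them. The linear signals of 13 macrophage markers summed to 34291 on LASS2-/- HFD, 22614 on WT HFD, 28766 on LASS2-/- chow and 23007 on WT chow. That is 1.52-fold for LASS2-/- over WT on the high-fat diet and 1.25-fold on chow. High-fat diet over chow was 1.19-fold in LASS2-/- and 0.983-fold in WT. By limma 2 of the 12 that entered rose in LASS2-/- relative to WT (Marco and Mpeg1), and 10 had an unadjusted p under 0.05, 9 of them higher and 1 lower. The lower one was Cd163, with a mean genotype effect of -0.79 ± 0.16 log2 (limma adjusted p = 0.0632). Marco, a scavenger receptor of macrophages, had 10.14 on LASS2-/- HFD, 7.06 on WT HFD, 9.86 on LASS2-/- chow and 7.98 on WT chow. Marco was thus high on both LASS2-/- arrays, unlike Lcn2, which was low on both chow arrays. Not all macrophage markers had the pattern of Marco. Lyz2 was highest on LASS2-/- HFD, at 12.44, with 11.47 on WT HFD, 11.61 on LASS2-/- chow and 11.29 on WT chow. For diet, 1 of the 12 rose by limma (Lyz2, adjusted p = 0.0437) and 1 fell (Cd163, adjusted p = 0.0221). At an unadjusted p under 0.05, 4 of the 12 were higher with the high-fat diet and 1 lower. Of 10 neutrophil markers 5 were below the array median on all 4 arrays, and the 10 summed to 1074 on LASS2-/- HFD, 861 on WT HFD, 868 on LASS2-/- chow and 740 on WT chow. Their sum was 1.24-fold higher on the high-fat diet in LASS2-/- and 1.16-fold higher in WT. Of the 5 neutrophil markers that entered, 0 passed limma for diet or genotype. At an unadjusted p under 0.05, 2 of the 5 were higher with the high-fat diet and 0 lower. For LASS2-/- relative to WT, 2 of the 5 were likewise higher and 0 lower. Of 4 adipocyte markers 2 were below the median on all arrays, and the 4 summed to 2346 on LASS2-/- HFD, 2414 on WT HFD, 1221 on LASS2-/- chow and 736 on WT chow, with Fabp4 alone passing for diet. That sum is nearly all Fabp4, which had 11.13 log2 on LASS2-/- HFD, 11.19 on WT HFD, 10.13 on LASS2-/- chow and 9.45 on WT chow. None of the other adipocyte markers exceeded the 6.31 log2 of Retn on LASS2-/- chow. The 5 cholangiocyte markers on the array, 2 of them below the median on all arrays, summed to 372 on LASS2-/- HFD, 246 on WT HFD, 335 on LASS2-/- chow and 309 on WT chow. The 8 hepatocyte markers summed to 218642 on LASS2-/- HFD, 229826 on WT HFD, 262917 on LASS2-/- chow and 247294 on WT chow. No marker of these lists was listed at 0 on any array, and the part of these cells in the members' differences was not tested.

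The genes whose pattern over the 4 arrays was most like that of the leading members were found by the distance between log2 values after each gene's own mean was removed, among 2767 genes with a range of at least 1 log2. Nearest to Lcn2 were Ly6d at 0.14, Sgo2a at 0.59 and Ctse at 0.98. Ly6d, a surface protein anchored by a lipid, had 11.59 on LASS2-/- HFD, 9.06 on WT HFD, 6.68 on LASS2-/- chow and 6.31 on WT chow, the same order and nearly the same spacing as Lcn2. Ctse, the protease cathepsin E, had 11.04 on LASS2-/- HFD, 7.64 on WT HFD, 6.51 on LASS2-/- chow and 5.85 on WT chow. Sgo2a, which protects cohesin at centromeres, was below the array median on 3 of the 4 arrays, and Ctse was below it on 1.

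Nearest to Saa2 were Gstm3 at 0.31, Srxn1 at 0.41 and Sprr1a at 0.49, and nearest to Orm2 were Gstm3 at 0.28, Sprr1a at 0.32 and Tspan8 at 0.33. Sprr1a and Tspan8 were below the array median on 2 of the 4 arrays each. Gstm3, a glutathione S-transferase, had 13.86 on LASS2-/- HFD, 12.46 on WT HFD, 11.79 on LASS2-/- chow and 11.10 on WT chow. Srxn1, sulfiredoxin, had 11.47 on LASS2-/- HFD, 9.79 on WT HFD, 9.20 on LASS2-/- chow and 8.76 on WT chow. Saa2 and Orm2, which lie on different chromosomes, were themselves 0.38 apart, against 0.21 for the Saa1 probe sets and 0.38 for the Saa4 probe sets. Saa2 was 0.75 and 0.91 from the probe sets of its neighbour Saa1, and Orm2 was 0.82 from its neighbour Orm3. Orm2 was 0.38 from Saa1 1419075_s_at and 0.53 from Saa1 1450788_at. Such a distance grows with the size of the differences as well as their order. A relation between promoter sequence and pattern was not tested. With 4 arrays many genes can share an order, and these distances are a description with no test.

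**Figure D5:**
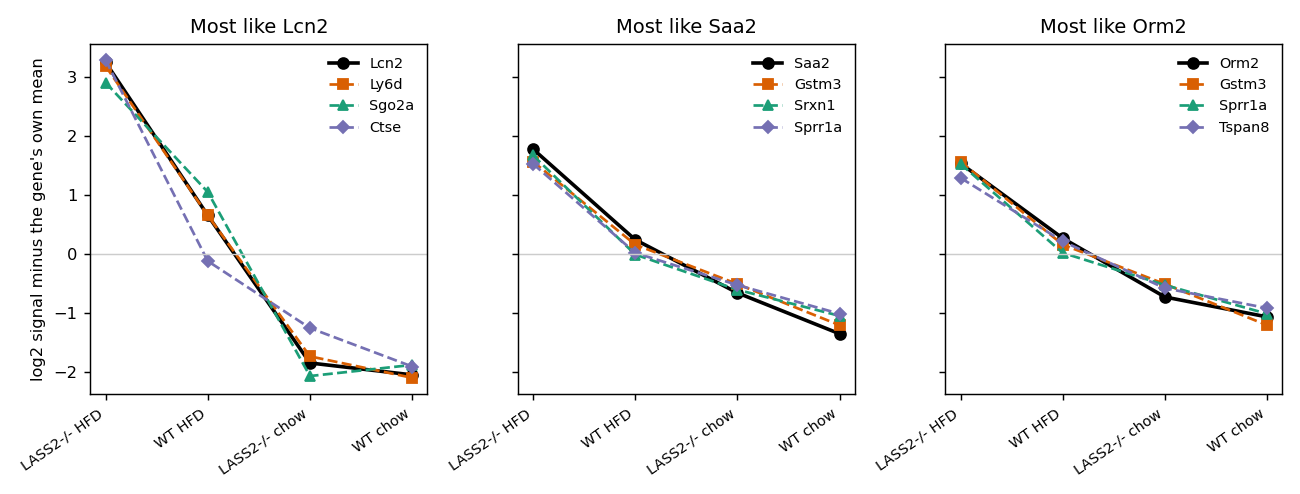
Log2 signal minus each gene's own mean on the 4 arrays, for Lcn2, Saa2 and Orm2 (black) and the 3 genes nearest to each. Ly6d overlies Lcn2 at a distance of 0.14, and Gstm3 is the nearest gene to both Saa2 and Orm2.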

How the data were processed

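The deposited table held log2 signals, 1 per probe set and array, made by the authors with MAS5 (version not given) per the submitters' processing notes. Per the labels' protocols, liver total RNA was labelled with a 3' IVT kit. Back on the linear scale, the mean after trimming 2% of probe sets from each tail was 496.2 on LASS2-/- HFD, 496.1 on WT HFD, 496.0 on LASS2-/- chow and 496.0 on WT chow, so no further scaling was applied. Of 45037 probe sets, 34945 had 1 gene symbol in the platform annotation, updated through a RefSeq table on GRCm38.p6, 932 had several and 9160 had none here.

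Ratios between single arrays used values floored at each array's median and were called at 2-fold, with no p. Mean effects used limma 3.58.1 (R 4.3.3) with genotype and diet as additive terms on unfloored values of 26035 probe sets: 4 arrays, 3 coefficients and 1 residual degree of freedom, given by how far the genotype effect differs between the diets. Moderation used a signal trend (prior of 11.6 degrees of freedom), and Benjamini-Hochberg adjusted p under 0.05 passed. The ± values are moderated standard errors and not spread between animals. A fit limited to probe sets with a mean signal of at least 7, which all members reach, was added after seeing the data. For lists, a gene was its brightest kept probe set. The naming rule took list genes that passed 2-fold one way on each of the 2 independent ratios of a factor, or passed limma for the genotype, up to 6 per list and factor, and all members, Alb, Cers2 and the nearest genes in pattern; other list genes were named after their values were seen. Members, lists and tests were chosen with earlier results of these data known. Alternatives were quantile normalization, equal array medians, a 1.5-fold threshold, a 25th-percentile floor, floored values in limma, no filter, no trend, robust moderation and 1 probe set a gene. Array number limits the precision. Python 3.11.15, numpy 2.4.6, pandas 2.3.3, Biopython 1.88 and matplotlib 3.10.9 were used. No detection calls were used here.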

Additional observations from a re-analysis of the deposited data

Results flagged for a closer look

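For Saa1 1450788_at the genotype ratio pointed opposite ways on the diets: LASS2-/- over WT was 0.88 log2 on the high-fat diet and -0.08 log2 on chow. With 1 array a group this difference was not tested. The other Saa1 probe set was above 0 on both diets.

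For Apcs the diet ratio pointed opposite ways in the genotypes: high-fat diet over chow was 0.28 log2 in LASS2-/- and -0.03 log2 in WT. This difference was not tested either.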

How the results depend on the processing

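No member ratio or effect that was called changed its direction under the alternatives run. Among counts and comparisons, 69 values stayed within their limits and 7 moved. At 1.5-fold, 2 members were higher in LASS2-/- than in WT on chow, against 0 at 2-fold. The limma genotype count was 0 with quantile normalization, equal array medians, no trend and robust moderation, against 1. The limma diet count of rises was 0 with no trend, against 9, where no probe set of the array passed and the members' lowest adjusted p was 0.43. It was 6 with robust moderation, which was within its limit. When each gene had 1 probe set, 1 member, Orm1, fell. Of single probe sets, 361 values were unchanged: a ratio stayed within its limit, or a limma effect kept its result, passing or not. Of the others 16 lost a call, 1 gained one and 2 ratios moved. With quantile normalization, Orm1 in LASS2-/- had a diet ratio of -0.10 and Hp one of 0.15 log2. Over all probe sets limma called 63 higher and 28 lower for genotype, against 20 and 17 with equal medians, 21 and 13 with quantile normalization, 38 and 17 with floored values, 32 and 21 with robust moderation, 70 and 44 with 1 probe set a gene, and 0 and 0 with no trend (1481 at an unadjusted p under 0.05). For diet it called 1012 higher and 942 lower, against 816 and 602 with equal medians and 0 and 0 with no trend (3021 at an unadjusted p under 0.05). Equal medians moved the median ratio of LASS2-/- over WT on chow over all probe sets to -0.06 log2, against 0.04. That setting removes the higher array median of LASS2-/- chow, 6.28 log2 against 6.17 on WT chow. The cause of the higher median was not tested. No paired analysis was possible because each group has 1 array and the labels give no replicate numbers, and leaving out an array leaves no residual degree of freedom.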
